A study of Mus musculus with 8 samples.

Results

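The nucleus-encoded enzymes of mitochondrial fatty acid beta-oxidation were followed in mouse spermatocytes with and without mitofusin 2 (MFN2), an outer membrane GTPase needed for mitochondrial fusion. The set held 9 genes, Cpt1a, Cpt1b, Cpt2, Acadm, Acadl, Acadvl, Hadha, Hadhb and Etfdh, taken by symbol from the 54532 genes of the expression table, and all 9 were found once. RNA-seq had been done on 8 libraries of C57BL/6J spermatocytes, 1 library for each combination of stage (pachytene, P, or leptotene and zygotene, L/Z), genotype and postnatal day (PD 24 or PD 52). MFN2 WT libraries came from Mfn2 loxp/loxp animals, and MFN2 cKO libraries from Mfn2 loxp/loxp animals that also carried Stra8-Cre, so that both genotypes have the floxed allele and the cKO alone has the recombinase. The methods of the study describe controls with 1 or 2 floxed alleles, a floxed region around the sixth exon, and a Cre driven by Stra8, a gene first active in spermatogonia, so that cells before that point and all somatic cells of the testis keep Mfn2. Cells had been sorted by size in an albumin gradient, and how many mice gave each library was not given in the sources used here. No library has a replicate.

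In beta-oxidation, a long-chain fatty acid reaches the mitochondrial matrix as an acylcarnitine and is then shortened step by step in a repeating cycle. CPT1 on the outer membrane makes the acylcarnitine, and CPT2 on the inner membrane turns it back into acyl-CoA. The acyl-CoA dehydrogenases VLCAD, LCAD and MCAD (Acadvl, Acadl, Acadm) take the first step for very long, long and medium chains, and the trifunctional protein (alpha subunit Hadha, beta subunit Hadhb) takes the remaining steps for long chains. Electrons from the dehydrogenases pass through the electron transfer flavoprotein and its ubiquinone oxidoreductase, Etfdh, into the respiratory chain.

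Values are FPKM, the fragments on a gene divided by its length and by a size term of the library. In the deposited values that term is not the plain count of reads on genes, because they already carry a scaling between libraries. The deposited values correspond to 14340665 to 20379950 reads on genes per library, and the 9 genes together took 0.0627% to 0.0870% of them. Ratios of FPKM between 2 libraries are given with an exact 95% binomial (Clopper-Pearson) interval of the reads behind them, which covers counting error only and not the spread between animals. Mfn2 itself was lower in the cKO library of all 4 pairs, with 39.6 against 77.1 FPKM in P at PD 24, 50.1 against 62.2 in P at PD 52, 34.3 against 82.2 in L/Z at PD 24 and 47.9 against 97.5 in L/Z at PD 52. The deposited value covers the whole gene, so transcripts lacking the floxed exon are counted too. The difference was smallest in P at PD 52, at 0.805 times WT (0.772 to 0.840).

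The stage markers went both ways between the P and L/Z libraries, and other cell types moved with stage, age and genotype, which touches each comparison that follows. Of 9 genes listed as leptotene and zygotene markers, 4 rose in P relative to L/Z (limma with Benjamini-Hochberg adjustment, adjusted p below 0.05), Sycp3, Hormad1, Hormad2 and Meiob, and 2 fell, Dmc1 and Rec8, where 28.4% of all genes were called for stage. In all 4 matched comparisons 4 of these 9 markers, Prdm9, Dmc1, Mei1 and Rec8, were lower in P and 4 were higher. Of 8 pachytene markers, 1 was called higher in P and 1 lower. In all 4 matched comparisons 2 of them were higher in P and 2 lower, beside 21.3% and 26.8% of all genes. Piwil1 measured 168 to 278 FPKM in P and 16.0 to 40.5 in L/Z. Pgk2 went the other way in every matched comparison, with 135 to 277 FPKM in P and 240 to 651 in L/Z. The 11 spermatid markers were higher in L/Z than in P in every matched comparison, and their summed level ran from 95.3 FPKM in P cKO at PD 24 to 19918 FPKM in L/Z cKO at PD 52. All 8 Leydig cell markers were higher in cKO in all 4 pairs, with sums of 20.7 to 261 FPKM in WT and 102 to 666 FPKM in cKO, and 7 of 8 macrophage markers likewise. All 8 Sertoli cell markers tested were higher in P than in L/Z in every matched comparison, with the lowest sums of the list, 21.1 and 59.6 FPKM, in the 2 L/Z libraries of PD 52. No gene of the 8 marker lists was at 0 in any library. The part of these cells in the results was not tested, and fewer cells of a type and less RNA per cell cannot be told apart in such samples.

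**Figure D1:**
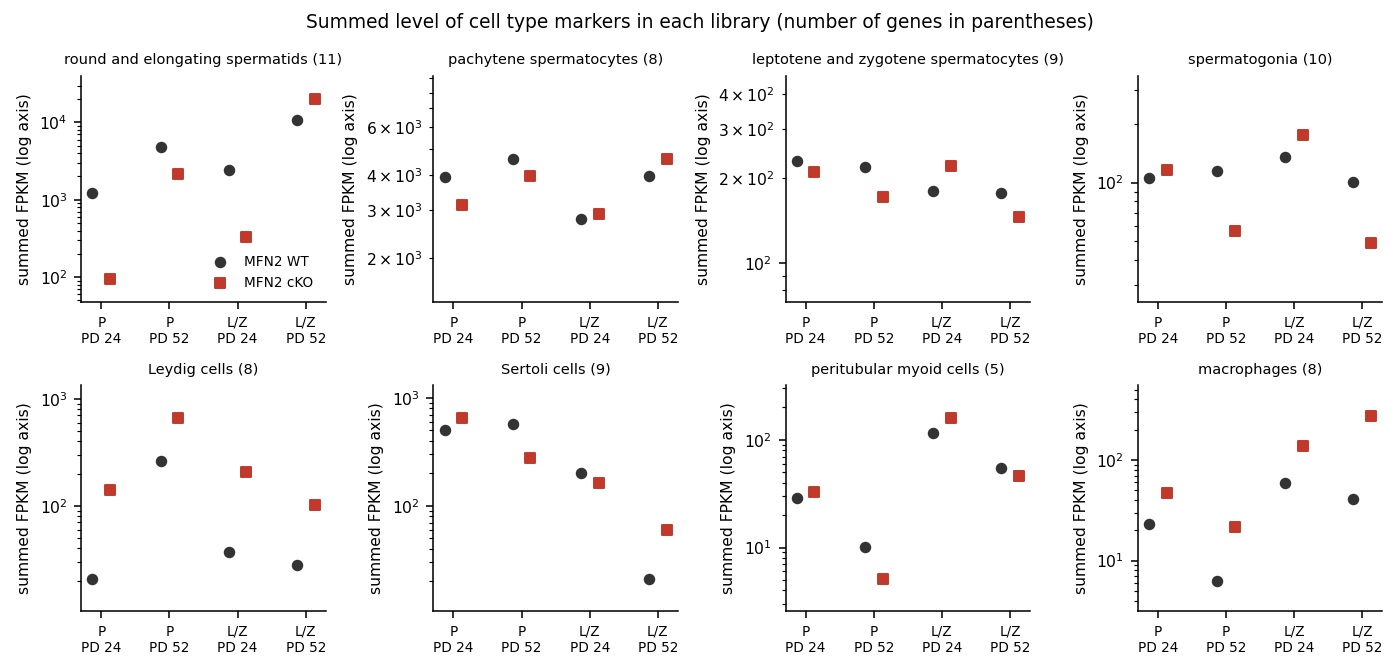
Summed FPKM of 8 lists of cell type markers (vertical axes, logarithmic) in the 8 libraries, by stage and postnatal day; black circles are MFN2 WT and red squares MFN2 cKO. Leydig cell and macrophage sums are higher in cKO in all 4 pairs, and the spermatid sum is highest in L/Z at PD 52.

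The 9 enzymes spanned a wide range of levels, and the order of the extremes was fixed. Hadha had the highest FPKM in all 8 libraries, with a median of 46.2, and Cpt2 the second highest in all 8, with a median of 30.7. Hadhb was the third in 7 of 8 libraries, with a median of 17.3. Together these 3 genes made up 63.8% to 86.2% of the summed FPKM of the set. The next medians, 8.24 for Cpt1a, 7.47 for Acadl, 7.21 for Acadvl, 4.09 for Acadm and 3.43 for Etfdh, belonged to genes whose ranges overlap, so that the order among the first 4 of these changed between libraries, while Etfdh was the lowest of the 5 in all 8. Cpt1b was the lowest in all 8 libraries, with a median of 1.15 and no overlap with Etfdh. FPKM divides by length, and the deposited length of Cpt1a is 4300 bases against 7642 for the union of its GENCODE M21 exons, so its place beside the other genes depends on that length.

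**Figure D2:**
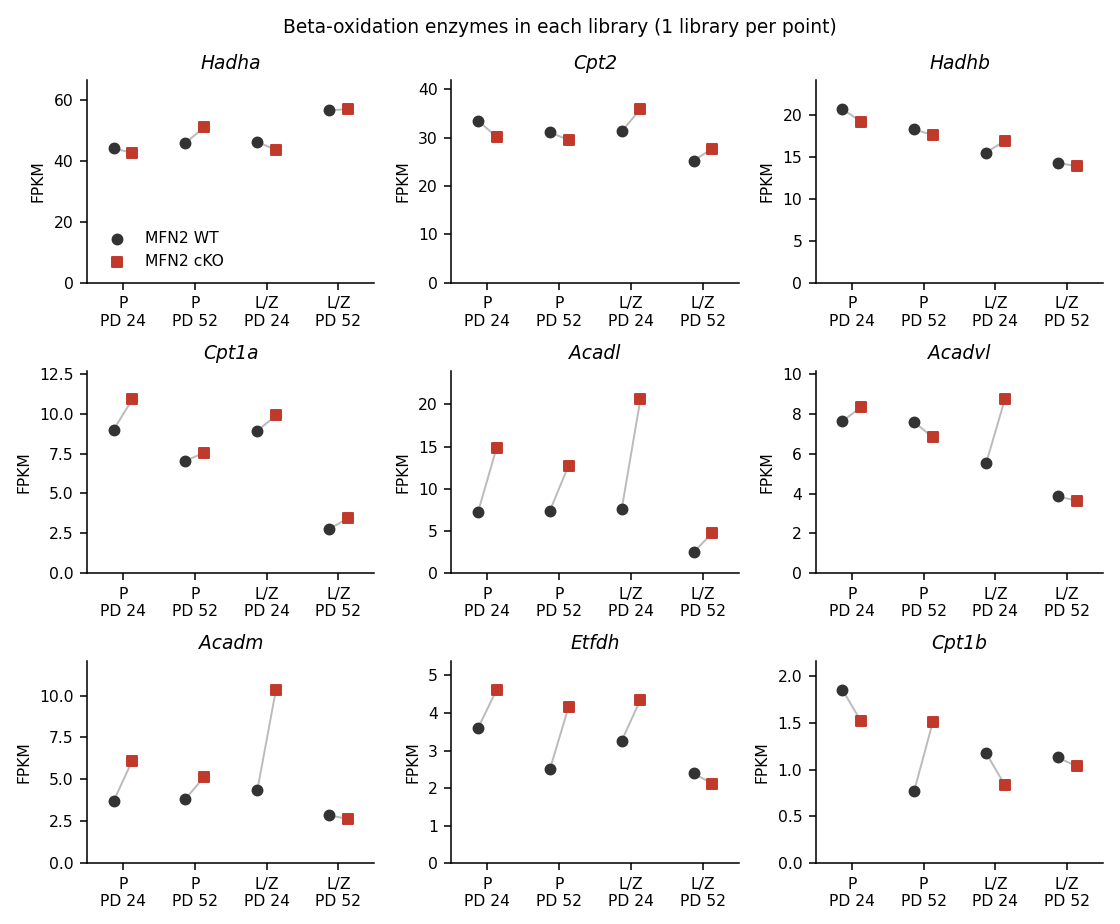
FPKM (vertical axes, from 0) of the 9 enzymes in each of the 8 libraries, by stage and postnatal day; each point is 1 library, black circles are MFN2 WT, red squares MFN2 cKO, and grey lines join the libraries of a pair. Acadl is above WT in all 4 cKO libraries, while Hadha, Cpt2 and Hadhb stay within narrow ranges.

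The steadiest genes were also the most abundant. On the log2(FPKM + 1) scale, the difference between the highest and lowest library was 0.41 for Hadha, 0.49 for Cpt2 and 0.54 for Hadhb, against a median of 1.22 over the 21175 genes tested (those above 1 FPKM in at least 1 library). At the other end, it was 2.64 for Acadl, and 9.42% of the genes tested had a larger range. Cpt1a (1.66) and Acadm (1.63) came next and also lay above the median gene, while Acadvl (1.07), Etfdh (0.85) and Cpt1b (0.68) lay below it. Cpt1b lies near 1 FPKM, where this scale narrows differences. As a plain ratio its highest library was 2.39-fold its lowest, against 2.40 for Acadvl and 2.18 for Etfdh.

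The upstream sequences of the genes that varied together most, Acadl and Acadm, of Cpt1a, and of the stretch between Hadha and Hadhb are shown because these genes are the ones the comparisons turn on. They are from RefSeq (GRCm38.p6), lie upstream of the RefSeq start of the gene, and leave out any GENCODE M21 exon. Coordinates in the deposited table match this build, with the same start and end as GENCODE M21 for 53585 of 54532 genes. Capitals mark GGGCGG, the GC box read by Sp1-type factors, and AGGTCA, the hexamer read by nuclear receptors, each on either strand (CCGCCC and TGACCT). All stretches read 5′ to 3′ along the strand of the gene named first.
Acadl, chr1:66863310-66863559, minus strand: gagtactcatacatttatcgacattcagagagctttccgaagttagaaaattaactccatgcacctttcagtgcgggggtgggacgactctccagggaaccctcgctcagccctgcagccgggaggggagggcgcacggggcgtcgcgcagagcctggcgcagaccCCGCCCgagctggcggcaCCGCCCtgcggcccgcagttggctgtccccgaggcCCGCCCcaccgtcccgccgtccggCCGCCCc
Acadm, chr3:153944644-153944893, minus strand: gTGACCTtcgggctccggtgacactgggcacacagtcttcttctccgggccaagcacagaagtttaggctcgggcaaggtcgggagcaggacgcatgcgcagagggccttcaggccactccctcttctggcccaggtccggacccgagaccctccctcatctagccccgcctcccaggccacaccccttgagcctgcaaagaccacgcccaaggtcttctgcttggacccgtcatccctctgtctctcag
Cpt1a, chr19:3323051-3323284, plus strand: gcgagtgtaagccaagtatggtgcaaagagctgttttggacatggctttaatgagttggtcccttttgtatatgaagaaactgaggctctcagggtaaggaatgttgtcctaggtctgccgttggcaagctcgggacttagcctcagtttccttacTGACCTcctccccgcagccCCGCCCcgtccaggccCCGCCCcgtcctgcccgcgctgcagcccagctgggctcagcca
Hadhb and Hadha, chr5:30155163-30155247, plus strand: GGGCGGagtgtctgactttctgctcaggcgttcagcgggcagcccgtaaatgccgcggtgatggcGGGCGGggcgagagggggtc

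Hadha and Hadhb lie head to head on chromosome 5, with RefSeq starts at 30154980 on the minus strand and 30155253 on the plus strand, 272 bases apart. RefSeq windows of 250 bases before and 50 after the start were found for 8 of the 9 genes. Of these, Acadl and Hadhb held 4 GC boxes each, Cpt1a and Cpt2 3 each (for Cpt1a, 2 of them in the printed stretch), Hadha and Etfdh 1 each, and Acadm and Acadvl none, while 35.7% of all 32851 such windows hold at least 1. The hexamer AGGTCA was found once each in Acadm, Acadvl and Cpt1a, against 16.3% of all windows. Neither the extended hexamer TNAAGGTCA (1.28% of all windows), nor a direct repeat of AGGTCA separated by a single base with at most 2 mismatches (3.86%), nor TATAAA (13.6%) was found in any of the 8, where the first 2 of these motifs contain AGGTCA or near copies of it. A match is only a match of letters, and no match says only that they are not in these windows.

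The first question was whether loss of MFN2 moved these enzymes within a stage and age. In 3 of the 4 cKO to WT pairs, no enzyme differed by 2-fold or more on the log2(FPKM + 1) scale. In the remaining pair, L/Z at PD 24, 2 of 9 did, Acadl and Acadm, both higher in cKO. Among all genes above 1 FPKM in either library of a pair, 8.08% passed 2-fold in P at PD 24, 11.0% in P at PD 52, 10.5% in L/Z at PD 24 and 7.95% in L/Z at PD 52, in either direction. These pairs have 1 library on each side, so no test of the difference within a pair exists.

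To pool the pairs, limma was run on log2(FPKM + 1) across all 21175 genes with each combination of stage and age as a block. None of the 9 enzymes passed an adjusted p of 0.05, and 29 of all genes did (0.137%), with 1467 at an unadjusted p below 0.05. The fitted median of the 9 enzymes was 0.12, against -0.04 for all genes. Acadl and Cpt1a were higher in cKO in all 4 pairs, as were 7.74% of all genes, and none was lower in all 4, against 5.66% of all genes. The 4 cKO values overlapped the 4 WT values for all 9 enzymes, whereas 0.911% of all genes did not overlap. Neither the effect of genotype by age (3 genes called, 0.0142%) nor that of genotype by stage (0 genes called, 0% of those tested, with 876 at an unadjusted p below 0.05) passed for any of the 9 in limma.

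Among the dehydrogenases, Acadl, which encodes the long-chain enzyme (ENSMUSG00000026003, chr1:66830839-66863277), differed most. In P it measured 7.22 FPKM in WT against 14.9 in cKO at PD 24, and 7.37 against 12.7 at PD 52. In L/Z it measured 7.58 against 20.6 at PD 24, and 2.47 against 4.74 at PD 52. The cKO library was the higher one in each pair, but the L/Z cKO library of PD 52 lay below the 3 other WT libraries, so the genotypes overlap. The ratio of cKO to WT was 2.06 (1.79 to 2.38) and 1.73 (1.47 to 2.05) in P, and 2.72 (2.37 to 3.12) and 1.92 (1.44 to 2.59) in L/Z, at PD 24 and PD 52 respectively. All 4 intervals lay above 1. The common difference was 0.93 on the log2(FPKM + 1) scale with a standard error of 0.16, and limma gave an unadjusted p of 0.000883 and an adjusted p of 0.173. Leydig cell markers were higher in cKO in the same 4 pairs. Over the 8 libraries the log2 level of Acadl followed the summed Leydig level with r = 0.60, the Sertoli sum with r = 0.65 and the spermatid sum with r = -0.83, libraries that share stage, age and sorting. With the macrophage sum r was 0.04. Other members followed the spermatid sum as closely, with r = -0.91 for Etfdh and r = -0.85 for Cpt1a.

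Acadm, the medium-chain dehydrogenase (ENSMUSG00000062908, chr3:153922357-153944632), resembled Acadl in 3 of the 4 pairs. It measured 3.71 FPKM in WT against 6.11 in cKO in P at PD 24, 3.84 against 5.14 in P at PD 52 and 4.34 against 10.3 in L/Z at PD 24, with ratios of 1.65 (1.42 to 1.92), 1.34 (1.13 to 1.59) and 2.38 (2.09 to 2.73). In L/Z at PD 52 it measured 2.85 in WT and 2.66 in cKO, a ratio of 0.932 (0.743 to 1.17). The common difference was 0.49 with a standard error of 0.21 (limma, adjusted p = 0.725), and the fitted change at PD 52 was 0.71 log2 units lower than that at PD 24, which limma did not call (adjusted p = 0.428). Acadm and Acadl had the highest correlation of any 2 members over the 8 libraries (r = 0.92). The ratio of Acadl to Acadm within a library was 1.74 to 2.48 in 7 libraries and 0.865 (0.649 to 1.14) in L/Z WT at PD 52, where the Acadl level was the lowest.

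Acadvl, the very-long-chain dehydrogenase of the inner membrane (ENSMUSG00000018574, chr11:70010183-70015411), was higher in cKO in both pairs of PD 24 and lower in both pairs of PD 52. It measured 7.64 and 8.35 FPKM in WT and cKO in P at PD 24, and 5.52 and 8.73 in L/Z at PD 24. At PD 52 it measured 7.59 and 6.82 in P, and 3.86 and 3.64 in L/Z. Of these 4 differences only that in L/Z at PD 24 exceeded counting error, with a ratio of 1.58 (1.36 to 1.85). The cKO to WT difference at PD 52 was fitted 0.45 log2 units below that at PD 24 (a genotype by age term of -0.45), which limma did not call (adjusted p = 0.583). In GENCODE M21, 42.9% of the exon bases of Acadvl lie in exons of Dvl2 on the opposite strand, and the kit used does not mark strand. Dvl2 measured 3.80 to 12.0 FPKM, and how reads in the overlap were assigned was not given in the sources used here.

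Within a library the ratio of the long-chain dehydrogenase to the very-long-chain one was higher in cKO than in WT in all 4 pairs. The ratio of Acadl to Acadvl was 0.945, 0.971, 1.37 and 0.640 in the WT libraries (P at PD 24, P at PD 52, L/Z at PD 24, L/Z at PD 52) and 1.78, 1.87, 2.36 and 1.30 in their cKO partners. The counting intervals of the 2 genotypes did not overlap in any of the 4 pairs. This ratio does not depend on how the libraries were scaled against each other, and it was chosen after the values were seen.

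**Figure D3:**
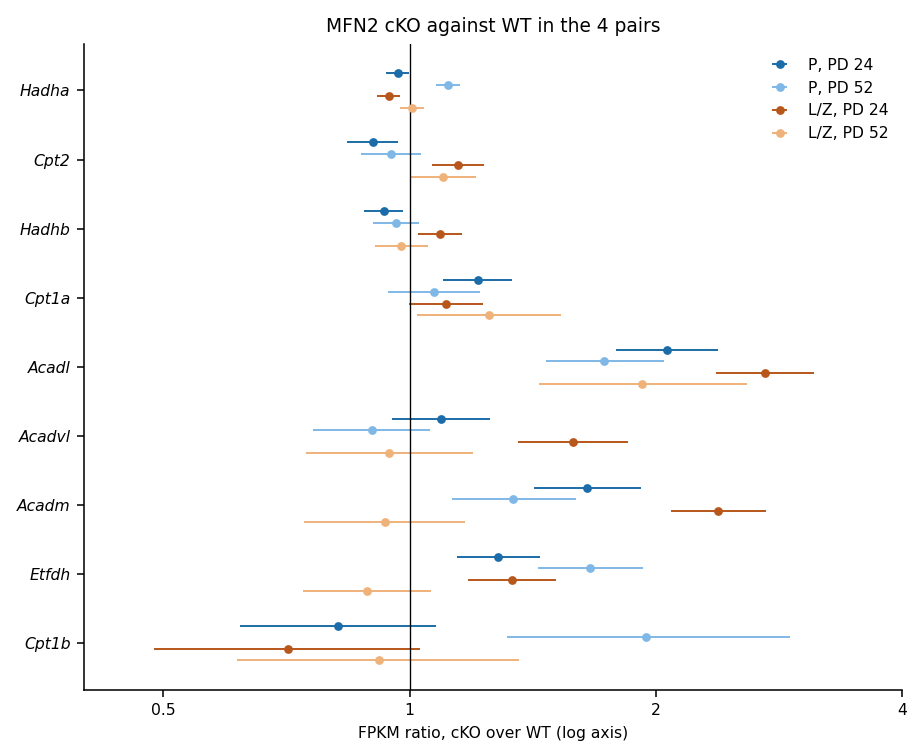
Ratio of FPKM in MFN2 cKO to MFN2 WT (horizontal axis, logarithmic) for the 9 enzymes in the 4 pairs; points are ratios of 2 libraries and bars exact 95% counting intervals, which do not cover the spread between animals. Acadl lies above 1 in all 4 pairs, and Hadha, Cpt2 and Hadhb lie close to 1.

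Of the carnitine shuttle, Cpt1a, the outer membrane enzyme that commits fatty acids to oxidation in liver and most tissues (ENSMUSG00000024900, chr19:3323301-3385732), was slightly higher in each cKO library. It measured 8.99 FPKM in WT and 10.9 in cKO in P at PD 24, 7.04 and 7.55 in P at PD 52, 8.92 and 9.89 in L/Z at PD 24, and 2.75 and 3.44 in L/Z at PD 52. The ratio was between 1.07 and 1.25, and its interval lay above 1 in P at PD 24 and in L/Z at PD 52 only. The common difference was 0.18 (limma, adjusted p = 0.866). The much larger contrast was between ages, given further on.

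Cpt2, the inner membrane enzyme (ENSMUSG00000028607, chr4:107903981-107923610), measured 25.3 to 35.9 FPKM over the 8 libraries. The cKO library was lower in P, with ratios of 0.901 (0.837 to 0.969) and 0.949 (0.872 to 1.03), and higher in L/Z, with ratios of 1.15 (1.07 to 1.23) and 1.10 (1.00 to 1.20), at PD 24 and PD 52. With each library rescaled over genes above 1 FPKM in all 8, the ratio in P at PD 52 moved above 1. The cKO to WT difference in P was fitted below that in L/Z, with a genotype by stage term of -0.27 log2 units that was not called (limma, adjusted p = 0.973).

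Cpt1b, the muscle form of CPT1 (ENSMUSG00000078937, chr15:89416405-89425863), was read from 42 to 126 reads per library. It measured 1.85 FPKM in WT and 1.51 in cKO in P at PD 24, 0.776 and 1.51 in P at PD 52, 1.18 and 0.836 in L/Z at PD 24, and 1.13 and 1.03 in L/Z at PD 52. Only in P at PD 52 did the counting interval leave out 1, with a cKO to WT ratio of 1.95 (1.32 to 2.92), and the fitted common difference was 0.00 (limma, adjusted p = 1.00). In GENCODE M21, 81.4% of its exon bases also belong to Gm44502, a read-through gene on the same strand that was listed at 0 in every library, so the value for Cpt1b depends on how shared reads were assigned. Cpt1a exceeded Cpt1b 2.44-fold to 11.8-fold within a library, with the lowest ratios, 2.44 (1.80 to 3.34) and 3.32 (2.44 to 4.60), in L/Z at PD 52.

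Hadha and Hadhb, whose products form 1 complex, did not follow each other. Hadha (ENSMUSG00000025745, chr5:30118304-30155162) measured 44.2 FPKM in WT against 42.7 in cKO in P at PD 24, 46.0 against 51.2 in P at PD 52, 46.4 against 43.7 in L/Z at PD 24, and 56.7 against 57.1 in L/Z at PD 52. Hadhb (ENSMUSG00000059447, chr5:30155248-30184593) measured 20.8 FPKM in WT against 19.3 in cKO in P at PD 24, 18.3 against 17.7 in P at PD 52, 15.6 against 17.0 in L/Z at PD 24, and 14.3 against 14.0 in L/Z at PD 52. Hadha was highest where Hadhb was lowest, and the correlation of their log2 levels over the 8 libraries was -0.80, while Hadhb correlated positively with the other 7 enzymes and Hadha negatively with all 8 others. The ratio of Hadha to Hadhb ran from 2.13 (2.04 to 2.22) in P WT at PD 24 to 4.09 (3.86 to 4.33) in L/Z cKO at PD 52. Their shared upstream stretch is the one printed above.

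The genotypes differed little in these subunits. The cKO to WT ratio was 0.943 to 1.11 for Hadha and 0.929 to 1.09 for Hadhb, with common differences of 0.01 and -0.02 log2 units (limma, adjusted p = 0.998 and 0.992). Rescaling over genes above 1 FPKM in all libraries turned the direction for Hadha in P at PD 24 and for Hadhb at PD 52 in both stages. Of the 150-base windows of Hadhb transcripts, 11.8% were identical to a stretch of Gm13910, a processed pseudogene on chromosome 2 with 14.5 to 27.3 FPKM, and 0.859% of the exon bases of Hadha overlap Garem2 on the opposite strand.

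**Figure D4:**
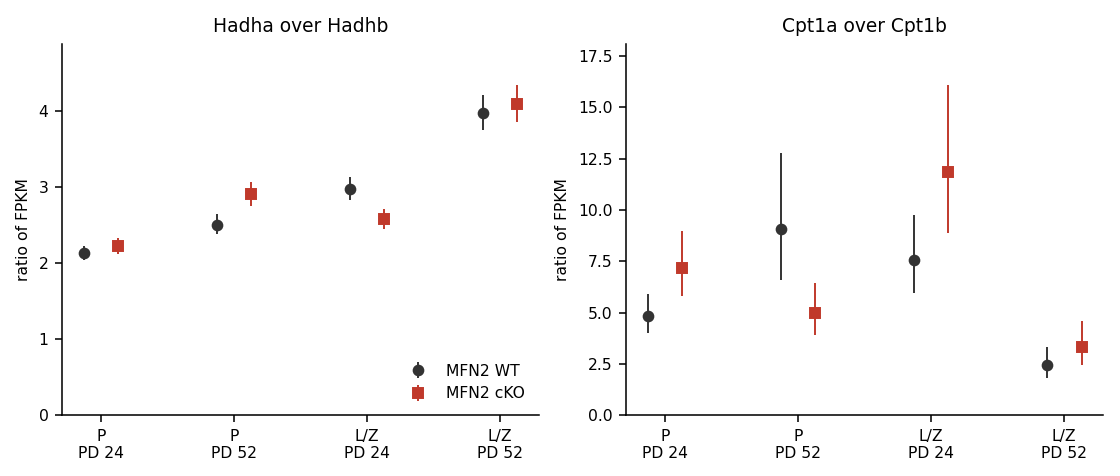
Ratio of FPKM between 2 genes within each library (vertical axes, from 0), Hadha over Hadhb on the left and Cpt1a over Cpt1b on the right, by stage and postnatal day; black circles are MFN2 WT, red squares MFN2 cKO, and bars exact 95% counting intervals. Hadha over Hadhb is highest, at 3.97 and 4.09, and Cpt1a over Cpt1b lowest, at 2.44 and 3.32, in the L/Z libraries of PD 52.

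Etfdh, which passes electrons from the flavoprotein to ubiquinone (ENSMUSG00000027809, chr3:79603788-79629500), was higher in cKO in 3 of 4 pairs. It measured 3.60 FPKM in WT and 4.62 in cKO in P at PD 24, 2.50 and 4.16 in P at PD 52, and 3.27 and 4.35 in L/Z at PD 24. In L/Z at PD 52 it measured 2.39 and 2.12. The ratios were 1.28 (1.14 to 1.44), 1.66 (1.43 to 1.93), 1.33 (1.18 to 1.51) and 0.887 (0.741 to 1.06), and the common difference of 0.26 was not called (limma, adjusted p = 0.815). In the exons, 3.70% of the bases overlap 4930579G24Rik on the opposite strand.

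The second question was how the enzymes differed between PD 24 and PD 52 within a stage and genotype. Cpt1a was the only member called for any common effect, and it fell by 0.87 on the log2(FPKM + 1) scale from PD 24 to PD 52 (standard error 0.23, limma, adjusted p = 0.0499). For age, 17.3% of all genes were called in either direction and 5.41% were called lower at PD 52. The call sits at the threshold and was lost (adjusted p between 0.164 and 0.201) when any 1 of 3 of the 4 matched comparisons was left out, cKO P, WT L/Z or cKO L/Z, and also with a pseudocount of 0.1, with no filter on low values or with the libraries rescaled over genes above 1 FPKM in all 8. Its 4 values at PD 52, 2.75 to 7.55 FPKM, lay below its 4 values at PD 24, 8.92 to 10.9 FPKM, as for 13.4% of all genes in either direction, and no other member separated by age.

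For Cpt1a, Acadl, Acadm and Acadvl the larger differences by age lay in L/Z. There Cpt1a at PD 52 was 0.308 times (0.260 to 0.364) its PD 24 level in WT and 0.348 times (0.297 to 0.405) in cKO, against 0.783 (0.698 to 0.879) and 0.693 (0.618 to 0.776) in P. Acadl at PD 52 was 0.325 times (0.249 to 0.422) its PD 24 level in L/Z WT and 0.230 times (0.191 to 0.277) in L/Z cKO, but 1.02 (0.856 to 1.22) and 0.857 (0.749 to 0.979) in P. Acadm in L/Z was 0.657 times (0.541 to 0.794) in WT and 0.257 times (0.214 to 0.306) in cKO, and Acadvl 0.699 (0.571 to 0.853) and 0.417 (0.343 to 0.506). In P the ratios were 1.03 (0.869 to 1.23) and 0.841 (0.723 to 0.977) for Acadm, and 0.993 (0.856 to 1.15) and 0.817 (0.698 to 0.956) for Acadvl, in WT and cKO. Etfdh had no such split by stage in WT, with 0.733 (0.629 to 0.854) in L/Z and 0.694 (0.601 to 0.801) in P. In cKO it had the split, with 0.488 (0.418 to 0.570) in L/Z and 0.900 (0.796 to 1.02) in P. Cpt1b went against this split, with 0.419 (0.288 to 0.599) in P WT, 0.998 (0.727 to 1.37) in P cKO, and 0.959 (0.668 to 1.37) and 1.24 (0.821 to 1.87) in L/Z. The fitted common differences were -0.85 for Acadl, -0.57 for Acadm, -0.44 for Acadvl and -0.41 for Etfdh, none of them called (limma, adjusted p = 0.126, 0.195, 0.166 and 0.120).

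Hadha went the other way, with a higher level at PD 52 in all 4 matched comparisons, as for 24.8% of all genes. Its ratio was 1.04 (1.01 to 1.08) and 1.20 (1.16 to 1.24) in P WT and P cKO, and 1.22 (1.19 to 1.26) and 1.31 (1.26 to 1.35) in L/Z WT and L/Z cKO. The common difference of 0.24 was not called (limma, adjusted p = 0.209). In all, 5 of the 9 enzymes were lower at PD 52 in all 4 comparisons, Cpt1a, Cpt2, Acadvl, Hadhb and Etfdh, beside 21.4% of all genes, though rescaling over genes above 1 FPKM in all libraries turned Cpt2 in P cKO. The summed FPKM of the 9 was 0.901 times its PD 24 level in L/Z WT and 0.770 times in L/Z cKO, and 0.947 and 0.984 times in P. The 11 spermatid markers were higher at PD 52 in all 4 comparisons, and 10 of them were called. All 8 Sertoli cell markers tested were fitted lower at PD 52, and 4 of them were called, where 5.41% of all genes were called lower. Over the 8 libraries the log2 level of Cpt1a followed the Sertoli sum with r = 0.86 and the spermatid sum with r = -0.85.

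The third question was how pachytene and L/Z libraries differed. No member passed limma for stage, where 28.4% of all genes did, and the adjusted p was lowest for Acadvl (0.48 higher in P, adjusted p = 0.0897) and Cpt1a (0.55 higher in P, adjusted p = 0.105). Cpt1a, Acadl and Acadm differed by stage at PD 52 and not, or in the other direction, at PD 24. At PD 52 Acadl was 2.99 times (2.29 to 3.93) and 2.69 times (2.21 to 3.29) its L/Z level in P, in WT and cKO, and Cpt1a 2.56 times (2.15 to 3.06) and 2.20 times (1.87 to 2.59). At PD 24 the ratio of Acadl was 0.953 (0.807 to 1.13) in WT and 0.723 (0.646 to 0.808) in cKO, and that of Cpt1a 1.01 (0.910 to 1.12) and 1.10 (0.998 to 1.22). For Acadm it was 1.35 (1.10 to 1.65) and 1.93 (1.58 to 2.37) at PD 52, and 0.855 (0.727 to 1.00) and 0.591 (0.524 to 0.666) at PD 24. Acadvl also differed more at PD 52, with 1.97 (1.62 to 2.40) and 1.87 (1.52 to 2.31), against 1.38 (1.19 to 1.62) and 0.956 (0.833 to 1.10) at PD 24. Etfdh did so in cKO, with 1.96 (1.67 to 2.30) at PD 52 and 1.06 (0.948 to 1.19) at PD 24. The difference between the ages in the stage contrast was not tested.

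Hadhb was the member whose stage values separated, with 17.7 to 20.8 FPKM in P and 14.0 to 17.0 in L/Z, as for 15.7% of all genes in either direction. Its common difference was 0.31 (limma, adjusted p = 0.137). It was 1 of 3 members higher in P in all 4 comparisons, beside 21.3% of all genes, but the other 2, Cpt1a and Etfdh, turned in WT at PD 24 under that rescaling, and Etfdh also in WT at PD 52. Hadha was lower in P in all 4, as were 26.8% of all genes. Sertoli cell markers were higher in P and spermatid markers higher in L/Z in the same comparisons. Over the 8 libraries the log2 level of Hadhb followed the Sertoli sum with r = 0.89, and that of Hadha the spermatid sum with r = 0.84. Other lists were about as close. The leptotene and zygotene sum gave r = 0.81 for Hadhb and r = -0.86 for Hadha, and the Sertoli sum r = -0.83 for Hadha.

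**Figure D5:**
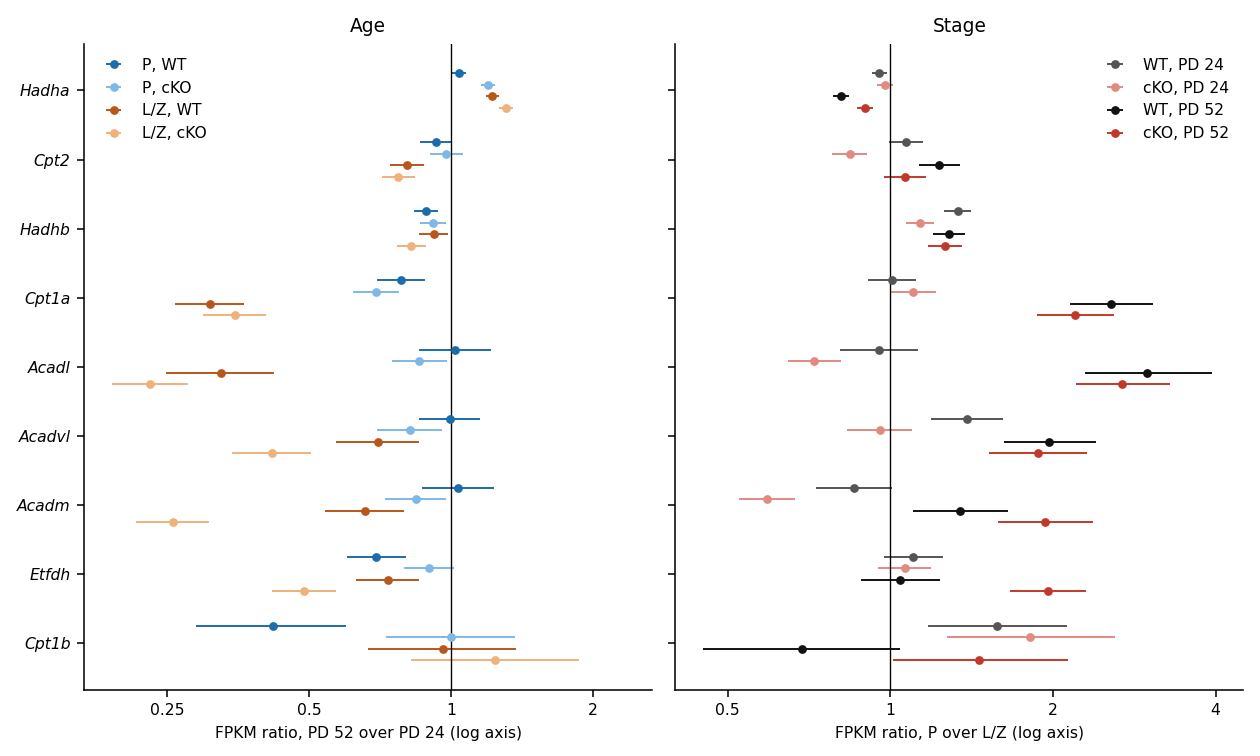
Ratios of FPKM (horizontal axes, logarithmic) for the 9 enzymes between PD 52 and PD 24 on the left and between P and L/Z on the right; points are ratios of 2 libraries and bars exact 95% counting intervals. Cpt1a, Acadl and Acadm are lowest at PD 52 in L/Z, and Hadha lies above 1 for age.

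The rest of the pathway was read from 5 lists of 45 genes, of which 40 were tested. For genotype none was called, with a median of 0.01 against -0.04 for all genes. In the pairs, 3 of 13 other mitochondrial beta-oxidation genes passed 2-fold on the log2(FPKM + 1) scale in L/Z at PD 24 and 1 of 12 in L/Z at PD 52, all higher in cKO, and none of the other 4 lists had a gene past 2-fold on that scale in any pair. Low genes are held back on that scale. As plain FPKM ratios, in L/Z at PD 52 the cKO level of Acaa1b, a peroxisomal thiolase, was 0.304 times WT (0.180 to 0.496) and that of Crot, the peroxisomal carnitine octanoyltransferase, 0.413 times (0.319 to 0.532), and in P at PD 52 that of Abcd2 was 0.368 times (0.239 to 0.555). Rises past 2-fold were held back too. In L/Z at PD 52 the ratio was 3.13 (2.30 to 4.31) for Hadh and 2.11 (1.55 to 2.91) for Echs1. For Acads in that pair it was 2.08 (1.33 to 3.31). In L/Z at PD 24 it was 2.44 for Eci2, 2.40 for Echs1 and 2.05 for Eci1, and in P at PD 24 2.15 for Hsd17b10. Of the genes past 2-fold on the log2(FPKM + 1) scale, the largest difference in both L/Z pairs was that of Acaa2, the matrix thiolase that ends the cycle, with 14.4 FPKM in WT against 46.4 in cKO, 3.23-fold (2.88 to 3.62), at PD 24 and 3.44 against 11.3 FPKM, 3.28-fold (2.54 to 4.29), at PD 52. In P, Acaa2 measured 16.7 FPKM in WT against 27.2 in cKO at PD 24, and 17.7 against 23.4 at PD 52. Over the 40 genes, 4 were higher in cKO in all 4 pairs, beside 7.74% of all genes. These were Acaa2, Acadsb, Amacr and the plasma membrane carnitine importer Slc22a5. Another 3 were lower in all 4, beside 5.66% of all genes, Acad11, the nuclear receptor Esrra and the mitochondrial deacetylase Sirt3, though Sirt3 in P at PD 52 turned under the rescaling. The 2 flavoprotein subunits, Etfa and Etfb, which hand electrons to Etfdh, were both higher in cKO in L/Z at PD 24 and both lower in both pairs of PD 52. Of the PD 52 ratios only that of Etfa in P, 0.652 (0.555 to 0.765), had an interval that left out 1. In P at PD 24 they went opposite ways, with 1.40 (1.23 to 1.60) for Etfa and 0.922 (0.566 to 1.49) for Etfb.

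For age, 1 of the 40 rose and 1 fell (limma), where 17.3% of all genes were called. Lpin1, a phosphatidate phosphatase and coactivator, rose by 1.35 log2 units (standard error 0.25, adjusted p = 0.0220), and Abcd3, a peroxisomal fatty acyl-CoA transporter, fell by 0.95 on the log2 scale (standard error 0.21, adjusted p = 0.0302). All 13 tested genes of the other mitochondrial list were fitted lower at PD 52, with a median of -0.49 against 0.01 for all genes, and none was called.

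For stage, 3 of the 40 were called higher in P and 4 lower (limma), where 28.4% of all genes were called. Hadh, the dehydrogenase of the third step for short chains, was higher by 1.12 (adjusted p = 0.0260), Acad11 by 0.67 (adjusted p = 0.0178) and Abcd3 by 0.66 (adjusted p = 0.0311). Among the lower ones, Etfb fell by 0.94 (adjusted p = 0.00687) and Lpin1 fell by 0.93 (adjusted p = 0.0114).

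The genes whose log2(FPKM + 1) pattern over the 8 libraries was most like that of each enzyme were sought among 6692 protein-coding genes above 10 FPKM in at least 1 library. For Acadl they were Idh1 (r = 0.99), Grhpr (r = 0.99) and Aldh1a1 (r = 0.98), and for Acadm Ctsf (r = 0.97), Slc29a1 (r = 0.96) and Pkdcc (r = 0.95). For Acadvl they were Sec22b (r = 0.99), Ip6k2 (r = 0.98) and Fech (r = 0.98), and for Etfdh Alas1 (r = 0.96), Lsg1 (r = 0.95) and the carnitine importer Slc22a5 (r = 0.95). For Cpt1a they were Cpe (r = 0.98), Lars (r = 0.96) and Mtpn (r = 0.96), for Cpt2 Sertad1 (r = 0.94), Cyb5r3 (r = 0.93) and Bex3 (r = 0.92), and for Cpt1b Fhod1 (r = 0.99), Kmt2e (r = 0.98) and Rbm33 (r = 0.97). For Hadha they were Agbl3 (r = 0.99), Plcd4 (r = 0.99) and Iqch (r = 0.98), and for Hadhb Mrpl37 (r = 0.99), Cdkn2d (r = 0.99) and Cstf2t (r = 0.99). No gene was among the closest 3 of more than 1 enzyme. With 8 libraries that share stage, age and genotype, these correlations are descriptions.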

How the data were processed

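Libraries were made with the NEBNext Ultra RNA kit, which does not mark strand, and sequenced in pairs on an Illumina HiSeq. The authors deposited 1 table of FPKM per gene and library, computed with Novomagic; the gene counter was not given in the sources used here. The submitters' processing notes name CASAVA 1.4, Bowtie 0.12.2 and the builds mm8 and mm9, with no roles, whereas the table's coordinates match GRCm38. All FPKM values in all 8 libraries were whole multiples of 1 read (tolerance 0.01 reads), and the reads so recovered served only for exact 95% counting intervals (SciPy 1.17.1).

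log2(FPKM + 1) was tested with limma 3.58.1 (R 4.3.3) with a mean-variance trend over genes above 1 FPKM in at least 1 library, with Benjamini-Hochberg adjustment over all of them. A common effect of genotype, stage or age took the 4 matched comparisons as blocks, and p-values measure the spread between these comparisons, not between animals. Pairs of single libraries were described by fold. Median-of-ratios factors over genes above 0 in all libraries were equal for all 8, so the deposited values already carry a scaling of that kind. The scripts were tested on simulated data. The study's own test, DESeq2, was not run on the recovered reads. The members, lists and tests were chosen with earlier results of these data known. Named genes were the 9 members, Mfn2, for the pathway lists the 3 largest changes each way among called genes and the largest 2-fold change each way per pair, and for each member the 3 closest patterns. Slc22a5, Acadsb, Amacr, Esrra, Sirt3, Etfa, Acaa1b, Crot, Abcd2, Echs1, Acads, Eci1, Eci2 and Hsd17b10 were named after their values were seen. The result of 1 gene that this rule names is not reported here. Alternatives were a pseudocount of 0.1, no filter, other scalings, protein-coding genes only, an additive fit, and leaving out 1 matched comparison. RefSeq sequences (GRCm38.p6) and GENCODE M21 annotation were used; Cpt1b had no RefSeq promoter entry matched.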

Additional observations from a re-analysis of the deposited data

How the results depend on the processing

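The count of members called for age, 1 (Cpt1a), became 0 with a pseudocount of 0.1, with no filter on low values, with scaling over genes above 1 FPKM in all libraries, and in P or L/Z alone, and ran from 0 to 1 with each matched comparison left out in turn. Members called for genotype, stage and the interactions were 0 under every alternative run. With a pseudocount of 0.1, 1 member (Acadl) passed 2-fold in P at PD 24. The cKO to WT difference of Acadl ranged from 0.72 to 1.14 log2 units over 14 alternatives, with adjusted p from 0.0742 to 0.941. Of 576 member values under an alternative, 542 kept their sign. Over all genes, called counts for genotype (29) were 7 with a pseudocount of 0.1, 0 with no filter, 71 with protein-coding genes only, 3 in the additive fit, 0 within P, L/Z, PD 24 or PD 52 alone, and 0 with any pair left out. For stage (6013) they were 3010 with no filter, 0 within PD 24 or PD 52 alone and 0 to 5000 with a comparison left out. For age (3669) they were 791 with no filter, 0 within P or L/Z alone and 0 to 3937 with a comparison left out. For genotype by age (3) they were 74 with a pseudocount of 0.1, 0 with no filter, 30 with median-of-ratios scaling, 0 with scaling over expressed genes and 204 with protein-coding genes only. Genes past 2-fold with a pseudocount of 0.1 were 2330 (1354 before) and 3364 (1917) in P and 3125 (1852) and 2683 (1420) in L/Z, at PD 24 and PD 52. Median-of-ratios scaling over all genes gave the same factor for every library, so it changed only which genes passed 1 FPKM. The scaling over expressed genes, the fits within 1 stage or 1 age and the ratio of Acadl to Acadvl were added after seeing the data. The common effects were fitted with the matched comparisons as blocks, and the additive fit is the one without these blocks. The labels carry no replicate numbers, so no further pairing was fitted. Precision is limited most for Cpt1b, with 42 to 126 reads.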
